A study of Mus musculus with 3 samples.

Results

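The Zfp genes of the mouse code for zinc finger proteins, and 148 of them carried at least 1 listed 5-methylcytosine (m5C) site in the mRNA of germinal vesicle (GV) oocytes, metaphase II (MII) oocytes or 1-cell embryos. A gene was taken as a member where its name in a list was Zfp followed by digits and optional letters. The 148 genes were taken from 8353 genes with a site, and their 675 distinct sites from 40298 sites in the 3 lists. The mouse annotation used here names 404 genes in this way, 391 of them protein-coding. Absence from a list does not mean absence of methylation, because a site with too few reads or a low level is left out as well.

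Bisulfite turns C into U, which is read as T, while m5C stays C, and the m5C level of a site is the percentage of reads that kept C. All animals were wild-type C57BL/6J females of 7 to 8 weeks, and no agent other than the hormones that induce ovulation was given. GV oocytes, which are fully grown and have not resumed meiosis, came from minced ovaries, and the donors had received 10 IU of PMSG (pregnant mare serum gonadotrophin) 48 h before. MII oocytes, which are arrested in the second meiotic metaphase, came from the oviduct 12 h after 5 IU of human chorionic gonadotrophin (hCG), given 44 to 48 h after 10 IU of PMSG. The 1-cell embryos came from females mated with C57BL/6J males, 24 h after 5 IU of hCG, given 44 to 48 h after 5 IU of PMSG. These doses are those of the labels, and the published methods state a higher hCG dose for MII oocytes and a wider age range for oocyte donors. Each stage was 1 library of pooled cells, with hyaluronidase used to remove the zona pellucida, and the labels describe the conversion of the oocyte RNA and of the embryo RNA in different words. Library and stage cannot be told apart, and no value below has a replicate check. Intervals are 95% intervals and cover counting error alone, since the reads carry no molecular identifiers.

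The lists held 15910, 20694 and 24996 sites with 4475058, 5285011 and 2616279 reads over them in the GV oocyte, the MII oocyte and the 1-cell embryo. Every listed site had at least 20 reads, a level of at least 10% and at least 5 reads with C. Of 12 oocyte marker genes, 8, 9 and 10 had a site in this order of stages, and of 9 markers of granulosa and cumulus cells 0, 2 and 0 had one. The part of such cells in the levels was not tested.

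A C2H2 zinc finger is a short fold in which a pair of cysteines and a pair of histidines hold a zinc ion, and proteins of this family often carry many fingers in a row that read out DNA base by base. Many of them also carry a KRAB domain, which recruits the co-repressor TRIM28 and through it histone methylation to transposons and imprinted regions, and part of this group acts from the egg. Others bind RNA, sit in chromatin complexes or act as ubiquitin ligases. In mRNA most m5C is made by NSUN2 at sites followed by G-rich sequence (Type I) and by NSUN6 at the motif CUCNA, in which the first C is methylated (Type II). Here, as in the study's methods, every site without CUCNA was counted as Type I, whatever its content of G. The fingers of a tandem array are joined by a conserved linker that most often reads threonine, glycine, glutamate, lysine and proline.

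The sites below are examples from the family: highly methylated sites, sites in finger linkers, the most deeply read site and Type II sites. The linker sites shown lie in the first linker residue, a place chosen after its values were seen. Of C followed by any base and GG, 2.48% were listed at linker threonines and 2.74% elsewhere in the same coding sequences. Each is given 5′ to 3′ with T for the U of the RNA, with the methylated C and the next 4 bases in capitals, from GENCODE transcripts on GRCm38.
Zfp109, linker 1, chromosome 7, position 24229066, minus strand, exon 3, coding sequence (CDS): agagtgcacaCAGGGgagaag
Zfp553, linker 9, chromosome 7, position 127236611, plus strand, exon 2, CDS: cgtgtgcacaCAGGGgagaaa
Zfp111, linker 10, chromosome 7, position 24198485, minus strand, exon 2, CDS: agagtccacaCGGGAgagaaa
Zfp62, linker 5, chromosome 11, position 49215859, plus strand, exon 5, CDS: aggatccacaCAGGGgagaag
Zfp334, linker 11, chromosome 2, position 165380340, minus strand, exon 5, CDS: ggactcacacCGGCGagaagc
Zfp420, linker 14, chromosome 7, position 29875604, plus strand, exon 3, CDS: gacttcatacCGGTGagaaac
Zfp592, chromosome 7, position 81023575, plus strand, exon 3, CDS: taatggattcCGGGGctcaga
Zfp821, chromosome 8, position 109721227, plus strand, exon 6, CDS: ggagaccacaCAAGAtgaagt
Zfp57, chromosome 17, position 37002738, plus strand, exon 1, 5′ untranslated region (UTR): gcgctgggaaCGGCAggactg
Zfp541, Type II, chromosome 7, position 16095550, plus strand, exon 17, CDS: actcctgagcCTCCAgggagt
Zfp296, Type II, chromosome 7, position 19577936, plus strand, exon 2, CDS: ctgtcagcttCTCCAagtctc
Zfp961, Type II, chromosome 8, position 71969951, plus strand, exon 4, 3′ UTR: cactttcagtCTCCAgtctaa
In the first 4 the methylated C is base 2 of the threonine codon that opens the linker, and in Zfp334 and Zfp420 it is base 3.

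The GV oocyte list held 276 Zfp sites (interval 244–311) in 110 genes, the MII oocyte list 357 sites (321–396) in 116 genes and the 1-cell embryo list 375 sites (338–415) in 103 genes. These were 1.73%, 1.73% and 1.5% of the sites of the lists. A listed Zfp gene had on average 2.51, 3.08 and 3.64 sites, against 2.61, 3.07 and 3.91 in all other listed genes. The median was 2 at each stage for Zfp genes and 2, 2 and 3 for the others. The share of Zfp genes with a lone site was 41.8%, 32.8% and 28.2%, beside 41.2%, 35.3% and 29.7% of all other genes. Between GV and MII oocytes 65 of the 148 genes had more sites and 24 fewer, while between MII oocytes and embryos 63 had more and 59 fewer. Such counts are not given for other genes, and the lists of all genes grew as well, with 15910, 20694 and 24996 sites.

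Of the 148 genes, 73 (49.3%) had a site at all 3 stages, against 54.0% of all other genes. A further 24 (16.2%) were listed in both oocytes and not in the embryo. Alone in the GV oocyte, the MII oocyte and the embryo were 10 (6.76%), 11 (7.43%) and 19 (12.8%). Among all other genes these shares were 13.4%, 3.60%, 6.18% and 13.6%. The sites themselves overlapped less than the genes: 86 of the 675 sites (12.7%) were listed at all 3 stages. A further 127 (18.8%) were listed in both oocytes and not in the embryo, and 255 (37.8%) in the embryo alone. Among all other sites 15.3% were listed at all 3 stages, 16.9% in both oocytes and not in the embryo, and 41.4% in the embryo alone. Of the 255 embryo-only sites, 222 (87.1%) lay in Zfp genes that had another site in an oocyte, a share not computed for other genes. In the other direction, 45 of the 129 Zfp genes with an oocyte site had none in the embryo list. The 45 are the oocyte-only genes above, whose shares stand beside those of other genes. Chromosome 7, where the mouse has large clusters of these genes, held 39 of the 148 members, and chromosomes 8 and 17 held 14 each.

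Median levels of the Zfp sites in GV oocytes, MII oocytes and embryos were 18.2% (interval 16.3–19.6), 20.8% (19.1–22.5) and 26.1% (24–27.7), beside 19.5%, 19.8% and 23.8% for all other sites. The quartiles were 13.0% and 27.9%, 14.3% and 30.6%, and 16.8% and 41.3%. Zfp sites had fewer reads than others: the median coverage was 85.5, 72 and 50 reads, against 122, 107 and 59. Sites under 50 reads were 28.3%, 31.7% and 49.6% of the Zfp sites, and their median level was 21%, 22.6% and 33.9%. Since 5 reads with C are needed, a site of few reads is listed only at a higher level. Among Zfp sites with at least 50 reads the median was 16.2%, 20.1% and 19.1%, and with at least 100 reads 18.4%, 20.9% and 17.0%, and the median of the embryo was then below that of the MII oocyte. Levels of 50% or more were found at 27, 30 and 69 Zfp sites (9.78%, 8.40% and 18.4%), beside 11.1%, 11.9% and 16.7% of all other sites. In the embryo 13 of 375 Zfp sites had no converted read, against 0 in the oocytes. Among all other sites this held for 2 of 15634, 8 of 20337 and 538 of 24621 over the stages.

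**Figure D1:**
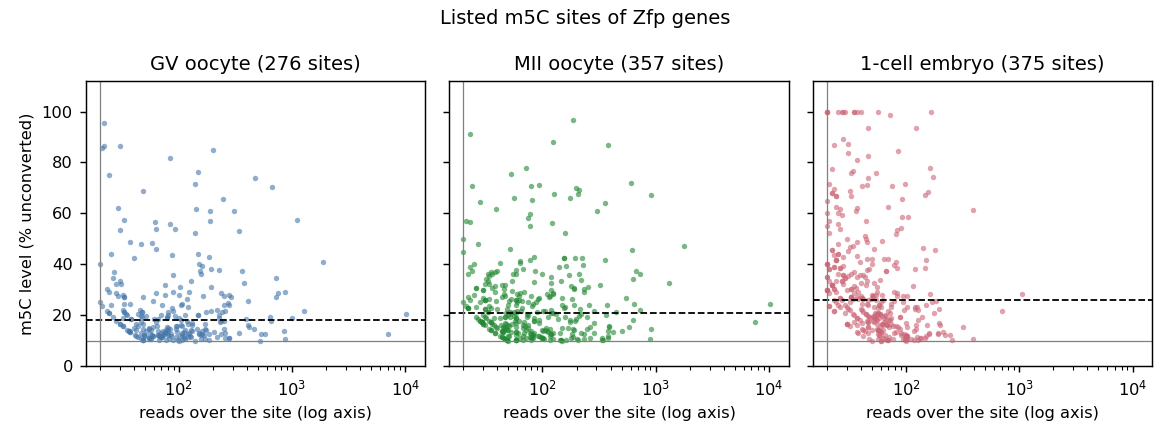
The m5C level of each listed Zfp site (vertical, % unconverted reads) against the reads over it (horizontal, log axis) in the 3 libraries, where each point is 1 site, the dashed line is the median level (18.2%, 20.8% and 26.1%) and the grey lines are the list limits of 20 reads and 10%. Embryo sites sit further to the left (median 50 reads) and reach 100%, and the lower left corner is empty because at least 5 reads must be unconverted.

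The number of sites differed widely between members. Zfp598, an E3 ubiquitin ligase that marks collided ribosomes, had the most sites in the embryo, with 9, 11 and 20 sites over the stages (22 distinct sites in chromosome 17, 24669687–24682016). Its coverage was high, with a median of 411, 358 and 125.5 reads, and its median level was 27.6%, 15.9% and 21.7%. The site at 24679122 in exon 7 was already at 70.4% of 668 reads in the GV oocyte (66.8–73.7), with 72.0% of 601 in the MII oocyte and 77.8% of 162 in the embryo (70.8–83.5). Zfp553 had 9, 10 and 15 sites, 18 distinct sites in all, and Zfp541, which is known from a histone deacetylase complex of spermatocytes, 7, 13 and 9. Zfp318 had 6, 11 and 6 sites, Zfp592 5, 8 and 8, and Zfp664 5, 7 and 12. The numbers in Zfp319 were 4, 3 and 12, in Zfp512b 3, 3 and 10, and in Zfp653 4, 2 and 10. Zfp335, a subunit of histone H3 lysine methyltransferase complexes, went the other way with 8, 7 and 2 sites, while Zfp839 had 6, 6 and 8 and Zfp865 6, 5 and 4. The median coverage of the Zfp335 sites was 75.5, 82 and 32 reads, and the part of coverage in this lower number was not tested. Zfp280b, singled out after its values were seen, had 8 sites in the embryo and none in an oocyte, between 10.2% and 27.5%.

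**Figure D2:**
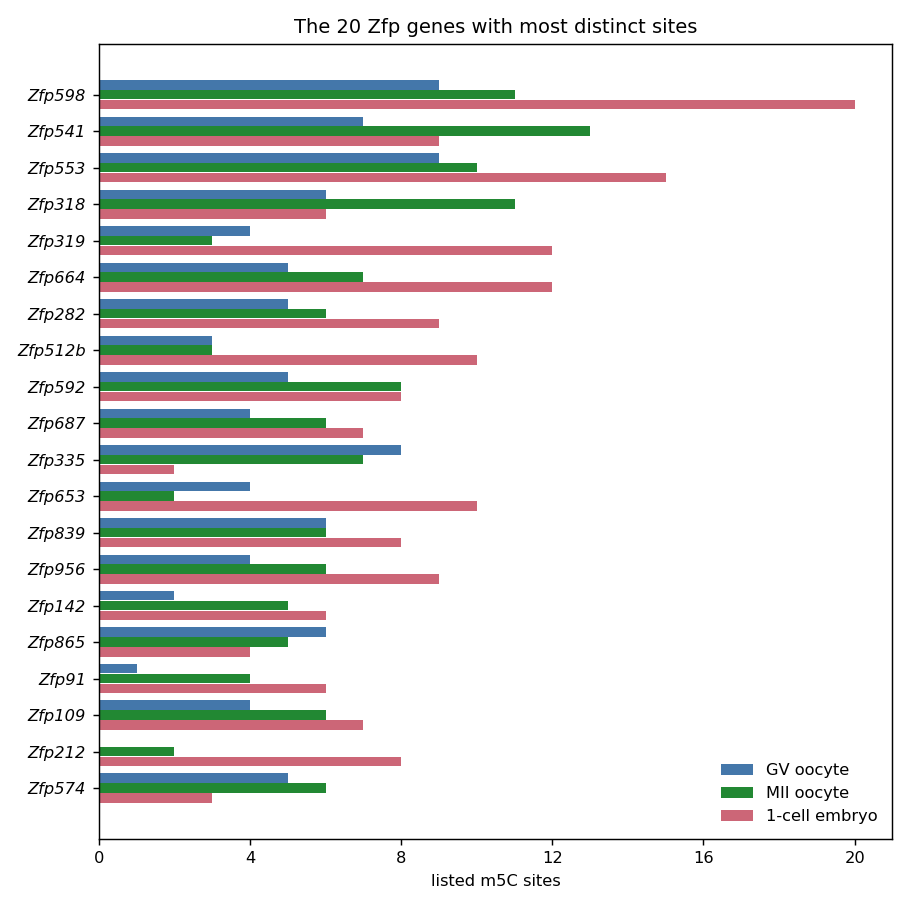
Number of listed m5C sites (horizontal) in the 20 Zfp genes with most distinct sites, with a bar for each stage and 1 library per stage. Zfp598 has 20 sites in the embryo and Zfp319, Zfp512b and Zfp653 reach 12, 10 and 10 there, while Zfp335 has 8 and 7 sites in the oocytes and 2 in the embryo.

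All 9 GV sites of Zfp553 and 8 of the 9 of Zfp598 were listed again in the MII oocyte, and 8 sites of Zfp553 and 10 of Zfp598 were listed in the embryo alone. Zfp553 codes for 12 fingers by the pattern used here, which is C, 2 to 4 residues, C, 12 residues, H, 3 to 5 residues and H. Among its highest sites, outside the fingers, were 65.7% of 248 reads, 69.0% of 210 and 100% of 35 at position 127236503, between fingers 8 and 9, and 61.7% of 141, 67.7% of 127 and 75.9% of 54 reads at 127237557 in the 3′ UTR. Within its fingers the levels ranged from 11% to 42.2%. The site at 127237809 of Zfp553, at 12.5%, 17.1% and 20.8%, lies in sequence that matches transcripts of 235 other genes after conversion, so its reads cannot be assigned to Zfp553 with certainty.

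**Figure D3:**
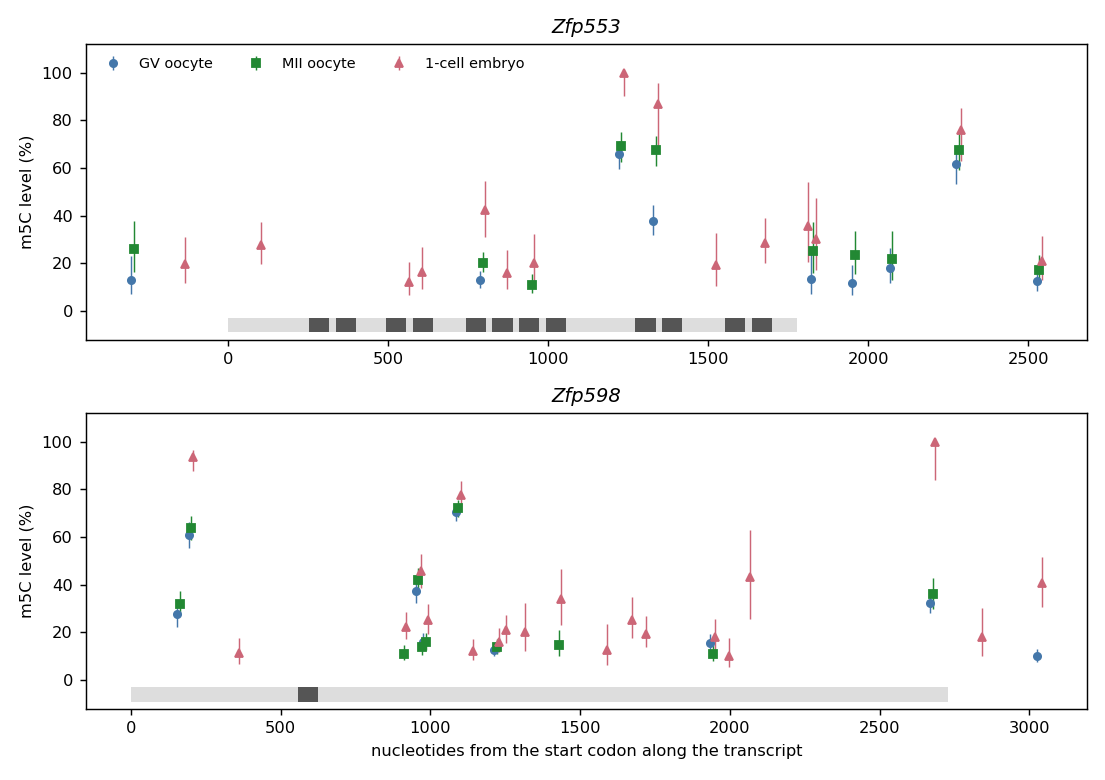
m5C level (vertical, %) of each listed site of Zfp553 and Zfp598 along the transcript (horizontal, nucleotides from the start codon), with a symbol for each stage, 95% Wilson intervals for counting error, the coding sequence as a light bar and fingers as dark boxes. Sites of the 3 stages are drawn slightly apart, the sites listed in the embryo alone are under 50% in both genes, and the sites at 61.0% or more in the GV oocyte are higher at each later stage.

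At the top of the scale, with at least 50 reads, stood the linker site of Zfp109. Its level was 85.1% of 201 reads in the GV oocyte (79.5–89.3), 96.8% of 185 in the MII oocyte (93.1–98.5) and 100% of 57 in the embryo (93.7–100). The intervals of the GV and MII oocytes did not overlap, and those of the MII oocyte and the embryo did. Zfp335 had 81.9% of 83 reads at 164907674, within its first finger, in the GV oocyte, 75.5% of 53 in the MII oocyte and 100% of 25 in the embryo. The 3′ UTR site of Zfp961 had 76.2% of 147 reads in the GV oocyte and 77.8% of 72 in the MII oocyte and was not listed in the embryo. Zfp92, on the X chromosome, had a 3′ UTR site at 73423161 with 71.4% of 140 reads, 87.9% of 124 and 100% of 29. Zfp592 had 74.0% of 466, 87% of 378 and 100% of 165 reads at 81023575, where none of the 165 embryo reads was converted. The site of Zfp821 at 109721227 reached 98.6% of 72 reads in the embryo from 53.3% of 338 and 60.9% of 304 in the oocytes.

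The site-by-site comparison used positions listed at both stages of a pair and Fisher's exact test, two-sided, on the reads with C and with T, with Benjamini-Hochberg adjustment over every shared site of all genes and a threshold of 0.05. Such a test compares the reads of 2 libraries, not the conditions, and the 3 pairs share libraries. Between GV and MII oocytes, 213 Zfp sites were shared, which is 77.2% of the GV and 59.7% of the MII Zfp sites. Among all other sites these shares were 81.5% and 62.6%. The median difference of the shared Zfp sites was 5.95 percentage points (interval 4.45–7.10), with 172 sites (80.8%) higher and 41 lower in the MII oocyte. All other shared sites had a median of 4.86, and 76.9% of them were higher. The test called 30 of the 213 (14.1%) higher in the MII oocyte and 1 (0.469%) lower, where over all 12954 shared sites the shares were 19.6% and 0.965%. The Zfp sites had a median of 106 and 81 reads in the 2 libraries, against 152 and 127 at the other sites.

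Between MII oocytes and embryos, 113 Zfp sites were shared, 31.7% of the MII and 30.1% of the embryo Zfp sites. All other sites gave 38.9% and 32.1%. The median difference of the shared Zfp sites was 16.3 points (12.1–20.0), with 102 sites (90.3%) higher and 11 lower in the embryo. The other sites had a median of 12.7, and 83.7% of them were higher. Of the 113, 59 (52.2%) were called higher and 1 (0.885%) lower, and the shares over all 8015 sites were 51.3% and 2.45%. Between GV oocytes and embryos, 93 Zfp sites were shared, 33.7% of the GV and 24.8% of the embryo Zfp sites. All other sites gave 40.8% and 25.9%. The 93 sites differed by a median of 22.9 points (15.1–28.6), beside 19.2 for the other sites. Of them, 60 (64.5%) were called higher and 1 (1.08%) lower, where all 6478 shared sites gave 66.1% and 1.05%. The share of Zfp sites called higher was below that of the whole list between the oocytes and near it in both pairs with the embryo. Shared sites of the MII oocyte and the embryo had a median of 168 and 47 reads. With the reads of every site divided by 5, to allow for PCR copies, the exact test called 0 Zfp sites between the oocytes, 7 between MII oocyte and embryo and 17 between GV oocyte and embryo, all higher at the later stage. No share over all shared sites is given at this setting, so these counts cannot be set against other genes. The 7 lay in Zfp541, Zfp592, Zfp821, Zfp750, Zfp282, Zfp319 and Zfp414, and all other calls from the MII oocyte to the embryo given below, and all calls between the oocytes, are lost in this way. With at least 50 reads in both libraries the median difference was 8.71 points from the MII oocyte to the embryo and 12.4 from the GV oocyte.

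The 86 sites listed at all 3 stages lay in 46 Zfp genes. Their median level was 21.4%, 30.6% and 50.6%, and 64 of them (74.4%) were higher at each later stage while 0 were lower at each. Among the 6059 such sites of other genes 67.3% were higher at each step and 1.85% lower at each. By gene, 61 of the 91 Zfp genes with a site shared by both oocytes had every shared site at a higher level in the MII oocyte, 6 had every one lower and 24 had both directions. For the MII oocyte and the embryo the numbers were 47, 2 and 6 of 55 genes. No such gene counts are given for other genes, so they cannot be read as particular to the family.

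**Figure D4:**
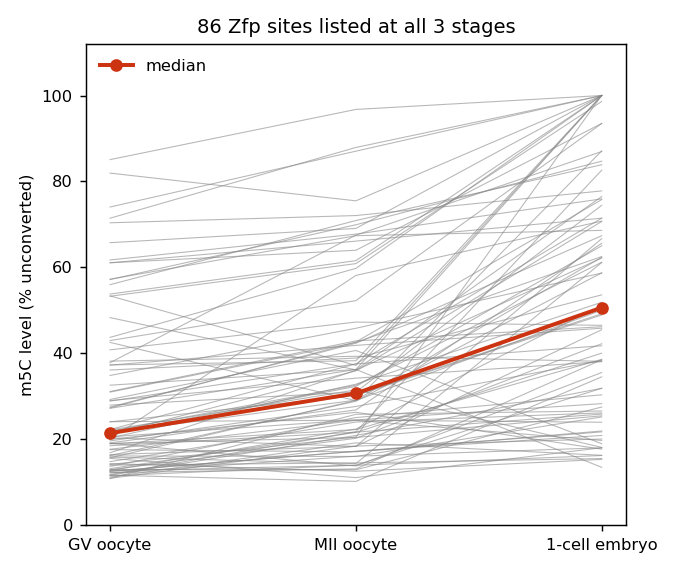
m5C level (vertical, % unconverted) of the 86 Zfp sites listed at all 3 stages (horizontal), with a grey line for each site and the median in red. The median goes from 21.4% to 30.6% and 50.6%, 64 lines go up at both steps and none goes down at both, and the embryo values rest on a median of 51.5 reads against 190.5 and 180.5 in the oocytes.

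The largest rises during oocyte maturation, among called sites with at least 50 reads in both libraries, were in Zfp282, Zfp553 and Zfp217. Zfp282 rose from 20% of 80 reads to 58.1% of 74 at position 47897926 of chromosome 6 (exact test, adjusted p = 2.96e-05) and from 14.7% of 170 to 35% of 120 at 47890652 (adjusted p = 0.000912). The linker site of Zfp553 rose from 37.8% of 225 reads to 67.5% of 206 (exact test, adjusted p = 4.87e-08). Zfp217, a transcriptional regulator often amplified in tumours, rose from 16.8% of 131 to 36% of 100 at 170119303 of chromosome 2 (exact test, adjusted p = 0.00946). The only site called lower was in Zfp414, at 33630077 of chromosome 17, which fell from 54.0% of 63 reads to 29.6% of 54 (exact test, adjusted p = 0.0455). None of the 5 calls between the oocytes held when the reads were divided by 5 (adjusted p from 0.318 to 1).

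After fertilization the largest rises among called sites with at least 50 reads in both libraries were in Zfp541, Zfp592, Zfp821 and Zfp655, and sites of fewer embryo reads had larger ones. The largest of all was in Zfp282, with 14.1% of 128 and 20.5% of 132 reads in the oocytes and 100% of 40 in the embryo at 47880416, a site chosen after its values were seen. Zfp541 had 27.9% of 276 reads and 31.0% of 252 in the oocytes and 74.4% of 172 in the embryo at 16082191 (MII oocyte to embryo, exact test, adjusted p = 3.87e-17). Its intervals in the oocytes, 22.9 to 33.5 and 25.6 to 36.9, overlapped, and that of the embryo, 67.4 to 80.4, lay above both. Zfp592 had 19.1% of 644, 26.8% of 549 and 65.6% of 93 at 81041478 in finger 7 (exact test, adjusted p = 1.87e-11). The Zfp821 site of 98.6% rose with an adjusted p of 2.05e-11 by the exact test, and Zfp655 rose at 145237106 of chromosome 5 from 35.9% of 170 to 70.7% of 75 (adjusted p = 4.37e-06), after 21.1% of 175 in the GV oocyte. Between GV oocytes and embryos the same 4 sites had the largest rises at 50 reads or more in both libraries, with adjusted p in this order of 7.86e-21, 5.78e-18, 4.74e-15 and 1.49e-12 by the exact test. With the reads divided by 5, Zfp541, Zfp592 and Zfp821 kept an adjusted p of 0.00612, 0.0417 and 0.046 from the MII oocyte to the embryo, and Zfp655 had 0.174.

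Zfp664 held the only Zfp site called lower in the embryo. In the 5′ UTR at 124863422 of chromosome 5 its level was 27.2% of 718 reads in the GV oocyte, 36.2% of 721 in the MII oocyte and 13.4% of 82 in the embryo (MII oocyte to embryo, exact test, adjusted p = 8.34e-05, GV oocyte to embryo, adjusted p = 0.0122). With the reads divided by 5 these became 0.343 and 0.557. Coding sites of the same gene had 27.2% of 290, 42.6% of 223 and 75.8% of 33 at 124886087 and 12.7% of 237, 22.3% of 215 and 51.2% of 43 at 124886171. Both rose from the MII oocyte to the embryo (exact test, adjusted p = 0.00168 and 0.000816), and with the reads divided by 5 both had an adjusted p of 0.553. They lie at the same base of fingers 7 and 8, and no other gene matched their converted windows of 51 nt.

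By role, the first group guards imprints and silences retroelements. Of 9 such genes looked for, 5 had a site, and Zfp708, Zfp809, Zfp819 and Zfp661 had none. Zfp57, which keeps imprinted DNA methylation through early development and is supplied by the egg, was the most deeply read member. Its 5′ UTR site at 37002738 had 20.5% of 10116 reads in the GV oocyte (19.7–21.3), 24.4% of 10328 in the MII oocyte (23.6–25.3) and 28.2% of 1048 in the embryo (25.6–31.0), and none of these intervals overlapped. A second 5′ UTR site at 37002648 had 12.5% of 7029, 17.2% of 7580 and 21.7% of 697. Both rose at each step (exact test, adjusted p = 1.36e-09 and 2.64e-13 between the oocytes, 0.0166 and 0.00833 to the embryo). At the coding site 37010034 the level rose from 40.8% of 1886 to 47.2% of 1791 (exact test, adjusted p = 0.00111) and was 46.5% of 142 in the embryo. With the reads divided by 5 the rises of both 5′ UTR sites had an adjusted p of 0.212 and 0.0553 between the oocytes and 0.571 and 0.513 from the MII oocyte to the embryo.

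Zfp445, which also protects imprints, had 1, 2 and 1 sites, and its site at 122856741 of chromosome 9 had 13.8% of 80 and 19.6% of 56 reads in the oocytes. Zfp568, a KRAB repressor of a placental Igf2 transcript, had adjacent sites at 29989058 and 29989059 of chromosome 7, with 24.0% of 250 and 14.7% of 251 reads in the GV oocyte. The first of them reached 48.9% of 45 reads in the embryo, from 30.2% of 189 in the MII oocyte (exact test, adjusted p = 0.0425). Zfp932, a KRAB protein of retroelement silencing, was listed once, with 21.2% of 33 reads in the GV oocyte, at a site whose converted window matched 1 other gene. Zfp638, which helps to silence unintegrated retroviral DNA, had 0, 1 and 3 sites, among them a Type II site in its first finger at 24.4% of 45 embryo reads. Over the list, 3 of 7, 3 of 5 and 3 of 5 shared sites were called higher between the oocytes, between MII oocyte and embryo, and between GV oocyte and embryo, and 0 lower. Over all shared sites of all genes 19.6%, 51.3% and 66.1% were called higher and 0.965%, 2.45% and 1.05% lower, so most sites shared with the embryo were called higher in any case, and with so few sites nothing is read from the counts of a role list here or below.

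Pluripotency and early embryo genes were listed in 3 of 7 cases, and Zfp42 (Rex1), Zfp281, Zfp322a and Zfp982 had no site. Zfp296, a regulator of heterochromatin and pluripotency, had 4, 4 and 6 sites at high oocyte coverage. Its highest site, at 19580156 of chromosome 7, went from 57.2% of 1115 reads to 67.4% of 916 in the MII oocyte (exact test, adjusted p = 6.03e-05) and was 68.6% of 156 in the embryo. The Type II site of Zfp296 printed above had 18.9% of 1006, 22.2% of 734 and 38.6% of 83 reads, and rose from the MII oocyte to the embryo (exact test, adjusted p = 0.00419). Zfp143, a promoter factor that also anchors chromatin loops, had a lone 3′ UTR site of 14.4% of 146 and 14.8% of 108 reads in the oocytes. Zfp217 had 4, 5 and 2 sites, and the one that rose during maturation had 62.2% of 37 reads in the embryo. In the list 2 of 8, 2 of 4 and 4 of 5 shared sites were called higher in the 3 pairs, where all shared sites gave 19.6%, 51.3% and 66.1%, and 0 were called lower.

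Among genes of RNA binding, splicing and decay, 5 of 11 were listed, with 20, 19 and 26 sites. Zfp598 held 9, 11 and 20 of these. Its site at 24669958 in exon 1 had 61.0% of 308 reads (55.5–66.3), 64.0% of 358 (58.9–68.8) and 93.5% of 123 (87.7–96.7), a rise from the MII oocyte to the embryo (exact test, adjusted p = 1.66e-10). Zfp106, an RNA-binding protein needed by motor neurons and muscle, had 5, 5 and 2 sites of 10.3% to 26.5%. Zfp207, a spindle assembly factor that loads Bub3, had a Type II site of 28.7% of 237 and 33.6% of 146 reads in the oocytes. The sites of Zfp346, which binds double-stranded RNA, were all in its 3′ UTR at no more than 44 reads. Zfp385a rose from 12.6% of 159 to 26.8% of 149 reads at 103315123 of chromosome 15 (exact test, adjusted p = 0.0159), the only call of the list among 15 sites shared by the oocytes. Between MII oocyte and embryo all 9 shared sites of the list were in Zfp598, and 5 were called higher, beside 51.3% of all shared sites. Between GV oocyte and embryo 4 of 8 were called higher, beside 66.1%, and 0 were called lower in any pair.

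Members of chromatin complexes and ligases for ubiquitin or SUMO were listed in 8 of 11 cases, with 31, 48 and 42 sites and a median level of 15.6%, 19.3% and 29.4%. Zfp592, Zfp687 and Zfp532 are partners in a transcriptional complex. Of the 5 Zfp592 sites shared by the oocytes, all 4 coding sites were called higher in the MII oocyte by the exact test, and the 3′ UTR site at 81042224 had 24.7% of 271 and 33.9% of 218 reads. Zfp687 had 15.6% of 96, 29.0% of 69 and 50% of 44 reads at 95011419 of chromosome 3, a rise from the GV oocyte to the embryo (exact test, adjusted p = 0.00013). Neither single step was called (exact test, adjusted p = 0.168 and 0.0538). With the reads divided by 5 the rise from the GV oocyte to the embryo had an adjusted p of 0.336. Zfp532 rose at 65623776 of chromosome 18 after fertilization, with 12.9% of 256, 12.8% of 288 and 27.5% of 102 reads (MII oocyte to embryo, exact test, adjusted p = 0.00297). Zfp644, a partner of the G9a methyltransferase, had a 5′ UTR site of 13.1% of 122, 21.5% of 65 and 40.0% of 50 reads. Zfp91, a ubiquitin ligase, had 1, 4 and 6 sites and no site shared by the embryo and an oocyte. Zfp451, a SUMO ligase, had a Type II site of 17.2% of 29 reads in the MII oocyte and 66.7% of 24 in the embryo (exact test, adjusted p = 0.00157). Over the list, 5 of 25, 9 of 12 and 9 of 10 shared sites were called higher in the 3 pairs, beside 19.6%, 51.3% and 66.1% of all shared sites, and 0 were called lower.

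Developmental regulators were listed in 7 of 12 cases, with 19, 26 and 16 sites. Zfp148, a transcription factor of GC-rich promoters, had 21.5% of 191, 29.1% of 234 and 62.3% of 69 reads at 33496295 of chromosome 16 (MII oocyte to embryo, exact test, adjusted p = 4.79e-06). Zfp703, which has no C2H2 match by the pattern used here, had 53.3% of 30, 37.1% of 35 and 100% of 27 reads at 26979151 of chromosome 8, a rise from the MII oocyte to the embryo (exact test, adjusted p = 3.98e-07). Zfp609 had 11.6% of 95, 10.1% of 79 and 34.5% of 29 at 65704441 of chromosome 9. Zfp318, needed for IgD on B cells, had 2 sites called higher in the MII oocyte, from 12.3% to 28.4% at 46383862 of chromosome 17 and from 10.5% to 22.7% at 46386805. Zfp423, a regulator of neural and fat cell development with 27 fingers, had 2, 3 and 1 sites of 11.8% to 30.6%, and Zfp219 and Zfp608 were listed at low coverage. The counts of sites called higher were 2 of 16, 5 of 6 and 5 of 5, beside 19.6%, 51.3% and 66.1% of all shared sites, with 0 lower. Outside the lists, Zfp750, an epidermal differentiation factor, had the most deeply read coding Zfp site of the embryo, with 21.8% of 1273, 32.5% of 1313 and 61.2% of 394 reads at 121512044 of chromosome 11, higher at each step (exact test, adjusted p = 5.4e-08 and 6.29e-22). With the reads divided by 5 the step between the oocytes was not called (adjusted p = 0.476 by the exact test) and the step to the embryo was (0.00115).

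The CDS held 70.7% (65.0–75.7), 75.9% (71.2–80.1) and 80.8% (76.5–84.5) of the Zfp sites, against 68.0%, 68.5% and 73.1% of the others. The 3′ UTR share was 17.8%, 12.0% and 9.60%, against 18.7%, 18.2% and 14.7%, and the 5′ UTR held 9.78%, 10.9% and 8.27%. Over the next 4 bases Zfp sites had a mean of 2.13, 2.06 and 1.87 G, near the 2.1, 2.1 and 1.91 of the other sites and above the 0.867 of all C in Zfp transcripts. Type II sites were 22 of 276 (7.97%, 5.32–11.8), 24 of 357 (6.72%, 4.56–9.81) and 12 of 375 (3.20%, 1.84–5.51), beside 5.88%, 5.00% and 3.45% among the others. All 30 distinct Type II sites of the family, in 27 genes, read CUCCA. Of the 19 Type II sites shared by the oocytes, 0 were called in either direction by the exact test, with a median difference of 1.56 points, and of the 194 Type I sites 30 were called higher and 1 lower, with a median of 6.18. From the MII oocyte to the embryo 5 of 9 Type II and 54 of 104 Type I sites were called higher. Over all shared sites of all genes and both types, 19.6% and 51.3% were called higher in these 2 pairs. Calls by type are not given for other genes and the difference between the types was not tested, so nothing is read from these few Type II sites. Zfp655 had a Type II site in its 5′ UTR of 13.9% of 847, 14.4% of 907 and 15.5% of 317 reads, while the Type II site of Zfp541 printed above had 57.1% of 189, 69.9% of 196 and 84.7% of 85.

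In the translated coding sequences 142 of the 147 coding members had a C2H2 match, with 1431 fingers in all, a median of 9 and at most 36 in a gene. Zfp750, Zfp839, Zfp703, Zfp330 and Zfp957 had none, and Zfp939 has no coding transcript in the annotation. A linker was taken as at most 9 residues between 2 fingers, which gave 1068 linkers. Of the 508 distinct sites placed in the coding sequences, 93 (18.3%) lay in a finger, where 28.9% of all C lay, and 38 (7.48%) in a linker, where 6.39% of all C lay. Fingers thus held 3.95 sites per 1000 C, linkers 7.30 and the rest of the coding sequence 7.16. The finger share was 16.0% (11.5–21.8), 17.1% (13.1–22.1) and 17.4% (13.5–22.1) over the stages, below the share of C at each. How many of these C were covered is unknown, and reads from repeated finger sequence may not map to 1 gene.

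Within linkers, 25 of the 38 sites fell in the first residue, a place chosen for description after its values were seen. That codon held 4.92% of the coding sites (3.36–7.16) and 1.29% of the C. In 21 of the 25 the codon was one for threonine, in 14 genes, with the methylated C at base 2 in 17 and at base 3 in 4, and GG followed within the next 3 bases in 20 of the 21. Threonine opened 722 of the 1068 linkers (67.6%), and threonine followed by glycine 644 (60.3%), in 105 genes. Threonine is coded by ACN and glycine by GGN, so these linkers hold the run CNGG. Of the 644 C in CNGG at the linker threonine, 16 were listed (2.48%, 1.53–4), and of the 5322 C in CNGG elsewhere in the same coding sequences 146 (2.74%, 2.34–3.22). The intervals overlap. CNGG held 31.9% of the coding sites and 7.33% of all C there.

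The 21 linker threonine sites were listed 9, 14 and 10 times over the stages, at a median level of 17.9%, 24.3% and 31.1%, with levels from 10.1% to 100%. After the 100% site of Zfp109 and the 87% of 23 reads of Zfp553 in the embryo, the highest was Zfp111, with 52.1% of 140 reads in the GV oocyte and 71.0% of 93 in the MII oocyte (exact test, adjusted p = 0.026). Another linker of Zfp109, at 24228400, also opens with threonine and had 10.5% of 76 reads in the embryo. Zfp62 had 11.4% of 70, 13.9% of 79 and 31.8% of 22 reads at its printed linker, Zfp334 10.1% of 346 and 23.4% of 124 in the MII oocyte and the embryo, and Zfp420 11.4% of 44 and 47.1% of 34. No other gene matched the converted 51 nt around any of the 21 sites, whereas 32 of the 674 Zfp sites with a full window had a match elsewhere.

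**Figure D5:**
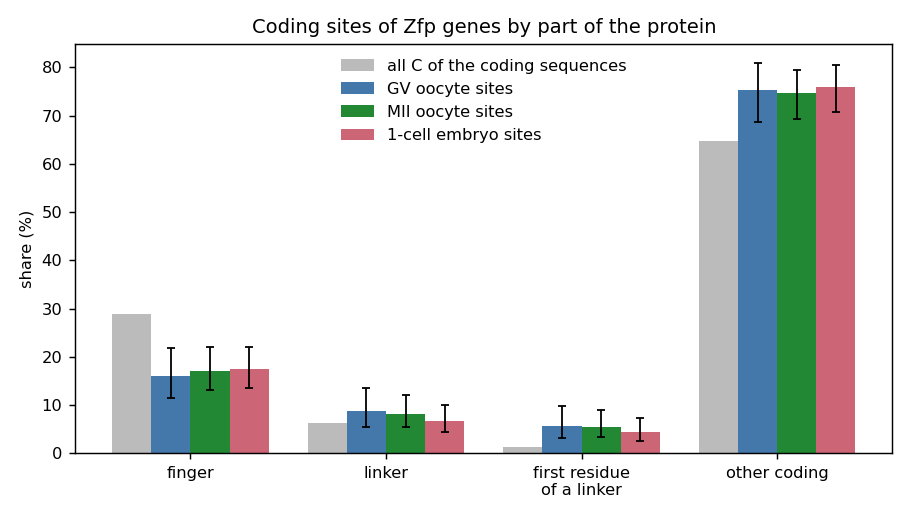
Share of the coding m5C sites of Zfp genes (vertical, %) in fingers, linkers, the first residue of a linker (a part of the linkers) and the rest of the coding sequence, with a bar for each stage, 95% Wilson intervals for counting error, and in grey the share of all C of the same coding sequences. Fingers hold 16.0% to 17.4% of the sites and 28.9% of the C, and the first linker residue 4.35% to 5.67% of the sites and 1.29% of the C. The first linker residue was chosen after its values were seen. Of C in CNGG, 2.48% were listed at linker threonines and 2.74% elsewhere in the same coding sequences.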

How the data were processed

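One list of called m5C sites per stage was used. Per the labels and the study's methods, cutadapt 1.13 and Trimmomatic 0.36 removed adapters and weak bases, HISAT2 aligned reads to the converted mouse genome (GRCm38, mm10) and Bowtie2 2.2.9 the rest to converted transcripts, and sites were filtered on coverage, level, unconverted reads and conversion-resistant genes. The labels name polyadenylated RNA and the methods RNA depleted of ribosomal RNA. The authors deposited the coverage as a raw read count, the level as a fraction, given here in percent, and a binomial p-value, used here only to check the lists and to recover the conversion of each gene. The median unconverted rate of Zfp genes so recovered was 0.221%, 0.310% and 0.359%, and of other genes 0.265%, 0.368% and 0.354%.

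Unconverted reads were the level times the coverage, whole to within 2.90e-05 reads. All 15900, 20686 and 24983 sites on nuclear chromosomes were C on their strand. Sites were placed in GENCODE M21 transcripts. The first linker residue and CNGG were examined after the values were seen. Fisher's exact test was run on all shared sites, with Benjamini-Hochberg adjustment, and was tested on simulated data. The simulated reads were independent, without PCR copies or differences between libraries, so the simulation cannot show how the test behaves under these. Intervals are Wilson for shares, exact Poisson for counts and order-statistic for medians. Python 3.11.15, scipy 1.17.1, pandas 2.3.3 and Biopython 1.88 were used.

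Members and role lists were chosen with earlier results of these data known. Genes named are the 6 with most sites per list, the 4 largest rises and 2 largest falls among called sites of at least 50 reads per pair, the 3 sites of highest level at 50 reads or more and the 3 of highest coverage per list, and listed genes of the role lists. Any other gene named was chosen after its values were seen. Alternatives were coverage minimums of 50 and 100 reads, a level minimum of 20%, wider names, annotation symbols, reads divided by 5, another linker definition and sites with unique windows.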

Additional observations from a re-analysis of the deposited data

How the results depend on the processing

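No paired analysis was possible because each stage was 1 library, and for the same reason no replicate could be left out. Of the recomputed summary values 103 stayed within the spread or count limits and 53 moved beyond them. Of those for single named sites 27 kept their call and 8 lost it, with 0 reversed. All 8 losses came with the reads divided by 5. A coverage minimum leaves the reads of a named site as they are or drops the site. Calls kept under a coverage minimum are therefore no test of these sites. Nor could these settings turn a rise at a named site into a fall.

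With at least 50 reads per site the embryo kept 189 Zfp sites in 60 genes, and the median level was 16.2% in the GV oocyte and 19.1% in the embryo. With at least 100 reads there were 123, 134 and 63 sites in 54, 49 and 25 genes in the GV oocyte, the MII oocyte and the embryo, with a median level of 17% in the embryo. The CDS share was then 82.1% in the MII oocyte and 88.9% in the embryo, and the 3′ UTR share 12.2%, 8.96% and 1.59%. With a level of at least 20% there were 120, 187 and 247 sites at a median level of 29.2%, 30% and 35.1%, and the GV oocyte had a mean of 1.5 sites per gene. The linker share was 4.12% in the GV oocyte and 3.68% in the embryo for the consensus linker alone, and 5.41% in the MII oocyte at 50 reads.

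At 50 and 100 reads the share of GV sites also listed in the MII oocyte was 85.9% and 93.5%, of MII sites in the GV oocyte 67.6% and 69.4%, of MII sites in the embryo 41.8% and 60.4%, and of GV sites in the embryo 43.4% and 57.7%. At 100 reads 41.3% of embryo sites were also listed in the MII oocyte and 34.9% in the GV oocyte. Between MII oocyte and embryo the median difference was 8.71 points at 50 reads and 6.34 at 100, with 26 and 14 sites called higher by the exact test, and between GV oocyte and embryo 12.4 and 9.14 points, with 27 and 13. In each pair 0 sites were called lower at 100 reads. With the reads divided by 5, the exact test called 0, 7 and 17 sites higher between the oocytes, MII oocyte and embryo, and GV oocyte and embryo, and 0 lower in each. The cause of these shifts was not tested. The counts of called sites at these settings have no share over all shared sites beside them and cannot be set against other genes. Depth limits the list itself, since a site needs 20 reads and 5 unconverted reads.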

Other observations

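Some Zfp sites stood directly beside another listed C. This held for 13 of 276 sites (4.71%) in the GV oocyte, 21 of 357 (5.88%) in the MII oocyte and 20 of 375 (5.33%) in the embryo, beside 4.13%, 4.63% and 3.90% of all other sites. In Zfp414, chosen after its values were seen, the C before the site that was lower in the MII oocyte had 17.5% of 63 and 16.7% of 54 reads in the oocytes, while the site itself had 54.0% and 29.6%.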
